A study of Homo sapiens with 10 samples.

Results

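The genes described here are 40 human genes of the endoplasmic reticulum (ER) folding machinery and of the unfolded protein response, chosen by symbol for their known function. They and the further lists below were chosen with earlier results of these data known. Counts of calls among them may therefore not be independent of these data. All 40 were found among the 54628 genes of the count table, and all 40 were among the 20125 genes with enough counts to test. The RNA came from NK-92, an established human natural killer cell line. It was compared untreated (0 h), after 6 or 24 h with deferoxamine (DFO) at 500 µM, an iron chelator, and after 6 or 24 h with 10 µg/mL PPMX-T003 (T003 below), an antibody to transferrin receptor 1, the receptor through which cells take up transferrin-bound iron. Each of the 5 groups had 2 libraries of polyadenylated RNA, 10 in all. The medium of all cells was Artemis Medium-1 (human serum at 2%). No library of untreated cells taken at 6 or 24 h, and none with a control antibody or vehicle, is used here. An effect of either agent and an effect of time in culture thus cannot be told apart in a comparison with untreated cells. The same holds for 24 h against 6 h within an agent. The comparison of T003 with DFO at the same hour is free of that limit. No label says that the libraries of a group came from separate cultures, so p-values measure the spread between these libraries, which may be technical, and all results concern 1 cell line.

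Proteins that enter the ER are threaded through the SEC61 channel, bound by the HSP70-type chaperone BiP (the product of HSPA5) and its cochaperones, given disulfide bonds by the protein disulfide isomerases, and held by the lectin chaperones calnexin and calreticulin while their sugars are trimmed. Proteins that fail to fold are sent back to the cytosol and destroyed, a route called ER-associated degradation. When unfolded protein accumulates, the sensors IRE1 (ERN1), PERK (EIF2AK3) and ATF6 are released from BiP. IRE1 splices the mRNA of the transcription factor XBP1, ATF6 is cut by the Golgi proteases of MBTPS1 and MBTPS2 to free its transcription factor part, and PERK lowers translation and favours ATF4. ATF6 and spliced XBP1 then raise the transcription of chaperone genes through short promoter elements. A natural killer cell uses the ER to make its surface receptors, cytokines and the granule proteins perforin and granzymes.

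Estimated read totals ran from 107117892 to 143575614 per library, and the scaling factors between libraries from 0.991 to 1.01. The natural killer markers were present, with all 8 of the listed genes at 1 CPM or more (CPM is the count scaled to library size, here by TMM) and a summed level of 2700 to 3229 CPM across libraries. That sum was highest at 24 h of T003 (3229 and 3190 CPM) and stood at 2872 and 2837 CPM untreated, and its part in the results below was not tested. The 8 genes did not move together. By the test used below, 4 were higher and 1 lower after 24 h of T003 than untreated, beside 7.10% and 5.44% of all genes. After 24 h of DFO 2 were higher and 1 lower, beside 3.43% and 3.27%. Of 7 B and plasma cell markers 1 reached 1 CPM, MZB1, itself an ER-resident folding factor, and the list summed to 47.4 to 55.7 CPM. Of 6 T cell markers 1 did (14.7 to 24.6 CPM in sum), and of 5 myeloid markers 2 did (7.53 to 10.4 CPM in sum).

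In untreated cells 18 of the 40 genes stood at 100 CPM or more, 19 between 5 and 100 CPM, and 3 under 5 CPM (ERO1B, DERL3 and TXNDC5). Levels of different genes are compared only per length, as CPM per kilobase of the Ensembl canonical transcript: CALR was highest at 613, followed by HSP90B1 at 331, HSPA5 at 256, CANX at 250 and P4HB at 209. The sensor ERN1 stood at 1.07 on that scale, DERL3 at 0.968 and ERO1B at 0.450. The 40 genes together took 9287 and 9400 CPM in the untreated libraries. The sums were 9402 and 9427 CPM after 6 h of DFO, 9735 and 9690 CPM after 6 h of T003, 8759 and 8688 CPM after 24 h of DFO, and 8304 and 8348 CPM after 24 h of T003. Both 24 h groups thus lay below every other library, and the T003 libraries below the DFO libraries. In bulk RNA, fewer cells of a type and less RNA per cell cannot be told apart.

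Some of the promoters, those of 11 of the 36 genes with an entry, carry 1 of the 2 ER stress elements through which the response is known to act. The stretches that hold them are shown here because 9 of the 16 genes that fell with T003 at 24 h hold one. Promoter windows ran from 250 bases before to 50 after a start in RefSeq's table for GRCh38.p14, and 36 of the 40 genes had an entry. A gene can have several starts: in GENCODE's annotation the elements of HSP90B1, CANX, CRELD2 and PDIA6 lie inside the gene, after its outermost start, and those shown for HSP90B1 and CANX overlap an annotated exon. Both strands were searched for the ER stress response element (ERSE: CCAAT, any 9 bases, CCACG), the related ERSE-II (ATTGG, any 1 base, CCACG), the XBP1-type core TGACGTGG and the cyclic AMP response element TGACGTCA. Matches of the 36 are counted per gene, at any of its starts. The share of all promoters is counted per window, and a gene can have several windows. ERSE was found for 8 of the 36 genes and in 0.0769% of all 35116 promoters. ERSE-II was found for 3 of the 36 and in 0.0541% of all promoters. TGACGTGG was found for 3 of the 36 (HYOU1, TXNDC5 and TXNDC11) and in 0.729% of all promoters, and in HYOU1 it overlaps an ERSE-II. TGACGTCA was found for 1 of the 36 (CREB3L2) and in 1.85% of all promoters. A match describes letters and is not evidence of binding, and the elements are known textbook features of several of these genes. HSP90B1 and HYOU1 each hold 2 such elements, of which 1 is shown for HSP90B1. Each sequence below reads 5′ to 3′ on the strand of the gene, with the element in capitals. An element that lies on the opposite strand reads CGTGG first and ATTGG or CCAAT second.
HSPA5, chr9:125241383-125241493, minus strand: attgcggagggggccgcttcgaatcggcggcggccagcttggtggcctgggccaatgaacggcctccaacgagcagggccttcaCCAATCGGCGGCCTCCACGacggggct
HSP90B1, chr12:103930216-103930234, plus strand: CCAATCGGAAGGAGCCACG
CALR, chr19:12938364-12938422, plus strand: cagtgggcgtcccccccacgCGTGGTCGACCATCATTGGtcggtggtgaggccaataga
CANX, chr5:179698778-179698796, plus strand: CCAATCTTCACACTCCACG
CRELD2, chr22:49918534-49918592, plus strand: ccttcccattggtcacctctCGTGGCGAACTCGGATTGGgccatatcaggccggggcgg
PDIA6, chr2:10812853-10812871, minus strand: CCAATGAGCCGCAGCCACG
ERO1B, chr1:236282163-236282208, minus strand: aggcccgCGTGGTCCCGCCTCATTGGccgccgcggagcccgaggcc
XBP1, chr22:28800603-28800621, minus strand: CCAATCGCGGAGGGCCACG
HYOU1, chr11:119057254-119057410, minus strand: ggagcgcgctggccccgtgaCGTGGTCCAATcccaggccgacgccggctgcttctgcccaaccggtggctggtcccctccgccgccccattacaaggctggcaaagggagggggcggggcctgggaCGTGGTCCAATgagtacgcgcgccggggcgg
SDF2L1, chr22:21642094-21642144, plus strand: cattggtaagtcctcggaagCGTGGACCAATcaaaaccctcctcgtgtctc
HERPUD1, chr16:56932005-56932055, plus strand: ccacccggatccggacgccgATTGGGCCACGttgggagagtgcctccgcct

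**Figure D1:**
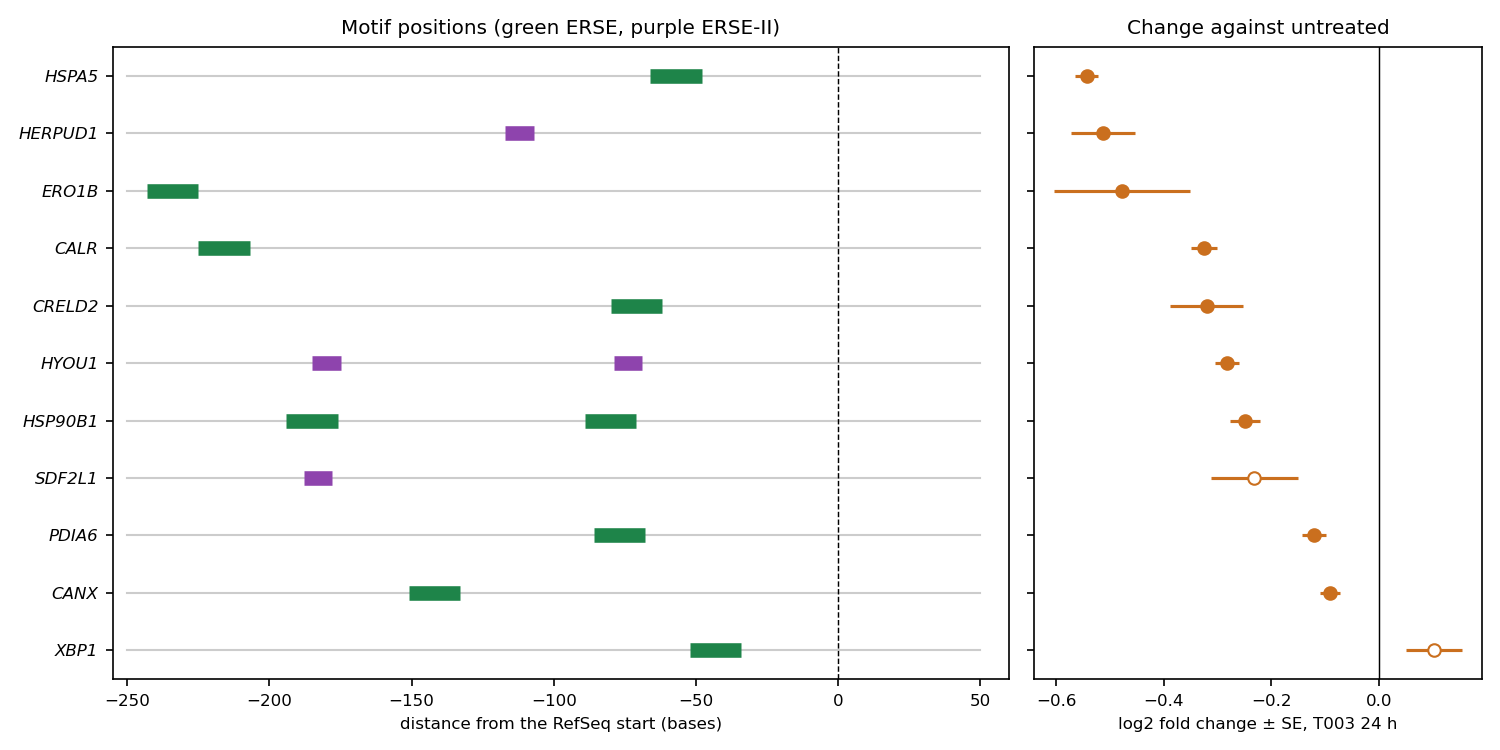
Positions of ERSE and ERSE-II elements relative to each gene's start (left, in bases) and the log2 change after 24 h of T003 against untreated cells with its standard error (right) for the 11 genes that hold one; for CANX, which has several starts, 1 start is drawn. The elements lie before the RefSeq start that is drawn, and 10 of the 11 changes are below 0.

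At 24 h the HSP70 and HSP90 chaperones and cochaperones, a role that here includes MANF and CRELD2, held the largest number of calls of any role. These were 6 of 9 after DFO and 7 of 9 after T003. Roles differ in size, and of the 2 lectin chaperones 1 passed after DFO and 2 after T003. After 24 h of DFO, 10 of the 40 genes were lower and 2 higher than in untreated cells at an adjusted p under 0.05 (edgeR's quasi-likelihood test, adjusted by Benjamini-Hochberg over all genes tested). Of all genes tested, 3.27% were lower and 3.43% higher. After 24 h of T003, 16 of the 40 were lower and 2 higher, against 5.44% lower and 7.10% higher of all genes. The median log2 change of the 40 was -0.05 after DFO and -0.09 after T003, where the medians of all genes were 0.00 and -0.01. The changes were small, and 26 of the 40 genes lay below 0 after DFO and 27 after T003. Both comparisons use the same untreated libraries, so the 2 sets of values are given side by side and not as separate evidence.

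**Figure D2:**
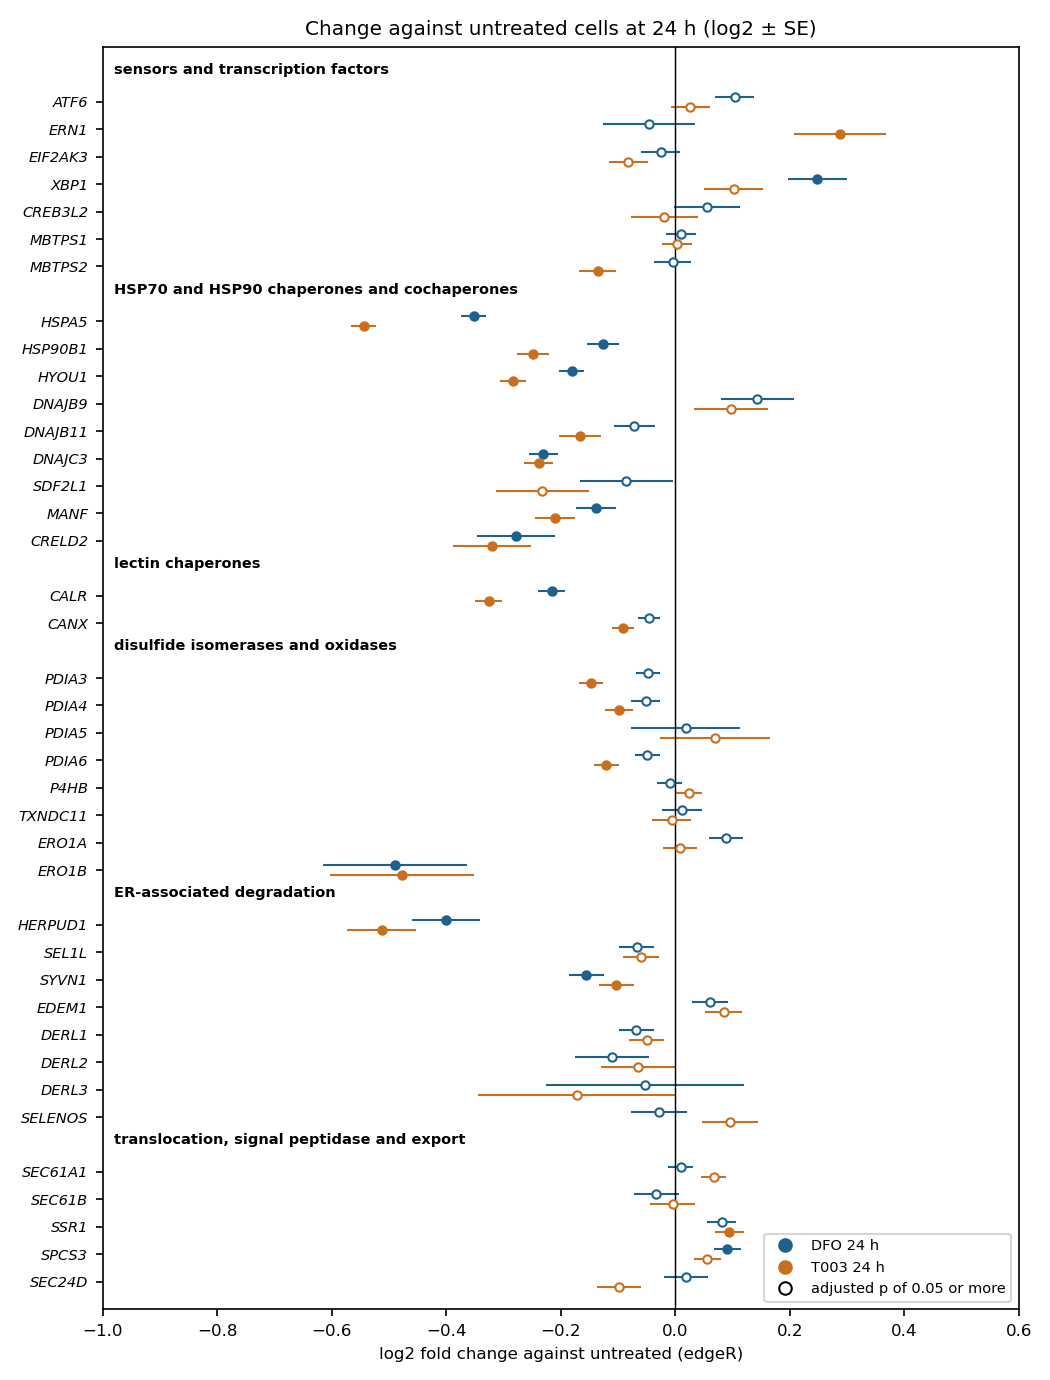
Log2 change at 24 h against untreated cells for 39 of the 40 genes, ordered by role, with DFO and T003 as separate points, bars for 1 standard error and filled points for an adjusted p under 0.05 (TXNDC5 is left out because its counts run from 0 to 78). HSPA5 lies at -0.35 and -0.54, and of the 9 HSP70 and HSP90 chaperones and cochaperones DNAJB9 alone lies right of 0.

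HSPA5 encodes BiP, the central ER chaperone and the partner that holds the sensors inactive (chr9, 125234853 to 125241382, minus strand, hg38). Its level was 990.3 and 1019.7 CPM in untreated cells, 999.5 and 1000.4 CPM after 6 h of DFO, 1099.8 and 1081 CPM after 6 h of T003, 795 and 780.1 CPM after 24 h of DFO, and 683 and 695 CPM after 24 h of T003. The 24 h libraries lay below all others without overlap, and the T003 libraries lay below the DFO libraries. HSPA5 fell by 0.35 on the log2 scale with DFO at 24 h (SE 0.022, adjusted p = 1.06e-05), which is a change of -21.7%. With T003 it fell by 0.54 (SE 0.022, adjusted p = 7.35e-07), a change of -31.4%.

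The other HSP70 and HSP90 chaperones and their cochaperones followed in part. Of the 9 genes of this role, HSPA5 included, 6 fell after DFO and 7 after T003, beside 3.27% and 5.44% of all genes. None of the 9 rose with either agent, and their medians were -0.14 and -0.24. HSP90B1, which encodes the HSP90-type chaperone GRP94 (chr12, 103930107 to 103953931, plus strand), stood at 916 and 923 CPM untreated, 976 and 944 CPM after 6 h of DFO, 1017 and 975 CPM after 6 h of T003, 855 and 831 CPM after 24 h of DFO, and 761 and 787 CPM after 24 h of T003. All 4 of its 24 h libraries were below the 2 untreated ones, and it fell by 0.13 with DFO (SE 0.028, adjusted p = 0.0222) and by 0.25 with T003 (SE 0.028, adjusted p = 0.000264). HYOU1 encodes GRP170, a nucleotide exchange factor of BiP. Its level was 498 and 504 CPM untreated, 482 and 493 CPM then 506 and 497 CPM at 6 h of DFO and of T003, 447 and 437 CPM at 24 h of DFO, and 409 and 415 CPM at 24 h of T003. HYOU1 fell by 0.18 with DFO (SE 0.022, adjusted p = 0.000811) and by 0.28 with T003 (SE 0.023, adjusted p = 3.16e-05).

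DNAJC3 encodes p58IPK, a J-domain cochaperone of BiP. It stood at 94.7 and 93.2 CPM untreated, 99.1 and 97.7 CPM at 6 h of DFO, 101 and 99.2 CPM at 6 h of T003, 79.8 and 80.3 CPM at 24 h of DFO, and 80.3 and 79.0 CPM at 24 h of T003. The 24 h libraries of the 2 agents overlapped here, and DNAJC3 fell by 0.23 with DFO (SE 0.025, adjusted p = 0.000333) and by 0.24 with T003 (SE 0.025, adjusted p = 0.000182). MANF encodes a small ER-resident and secreted partner of BiP. Its untreated level of 142 and 149 CPM compared with 143 and 151 CPM at 6 h of DFO, 153 in both libraries at 6 h of T003, 129 and 135 CPM at 24 h of DFO, and 124 and 127 CPM at 24 h of T003. MANF fell by 0.14 with DFO (SE 0.035, adjusted p = 0.0374) and by 0.21 with T003 (SE 0.035, adjusted p = 0.00265).

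CRELD2, which encodes an ER-stress-inducible protein with disulfide isomerase motifs, was at 28.8 and 30.8 CPM untreated, 28.2 and 29.3 CPM at 6 h of DFO, 30.1 and 29.1 CPM at 6 h of T003, 24.1 and 25.1 CPM at 24 h of DFO, and 25.6 and 22.1 CPM at 24 h of T003. It fell by 0.28 with DFO (SE 0.068, adjusted p = 0.0348) and by 0.32 with T003 (SE 0.068, adjusted p = 0.0108). DNAJB11 encodes ERdj3, a J-domain protein that hands substrates to BiP. Its level was 196 and 203 CPM untreated, 206 and 201 CPM at 6 h of DFO, 212 and 215 CPM at 6 h of T003, 186 and 194 CPM at 24 h of DFO, and 184 and 171 CPM at 24 h of T003. DNAJB11 fell by 0.17 with T003 (SE 0.036, adjusted p = 0.0124), and with DFO its log2 change was -0.07 (adjusted p = 0.331). The remaining pair did not pass the test: SDF2L1, a partner of ERdj3, had values of -0.09 with DFO (adjusted p = 0.669) and -0.23 with T003 (0.0961), and DNAJB9, which encodes the J protein ERdj4, had values of 0.14 (0.256) and 0.10 (0.414) on the log2 scale.

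Several of these calls lie near the threshold and were lost when 1 library was left out, including libraries outside the comparison, while the direction was kept. After DFO, the call for HSP90B1 was lost without either untreated library or without DFO 24 h replicate 2 (adjusted p = 0.0735 to 0.158, log2 change -0.10 to -0.13), that for CRELD2 without any 1 of 6 libraries (untreated 1 and 2, T003 6 h 1 and 2, DFO 24 h 1 and 2; 0.0573 to 0.273, log2 change -0.22 to -0.32), and that for MANF without any 1 of 7 (untreated 2, T003 6 h 1 and 2, DFO 24 h 1 and 2, T003 24 h 1 and 2; 0.0583 to 0.355, log2 change -0.10 to -0.16). After T003, the calls for CRELD2 (0.0893 and 0.105, log2 change -0.22 and -0.27) and DNAJB11 (0.109 and 0.114, log2 change -0.11 and -0.14) were lost without untreated replicate 2 or without T003 24 h replicate 2.

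**Figure D3:**
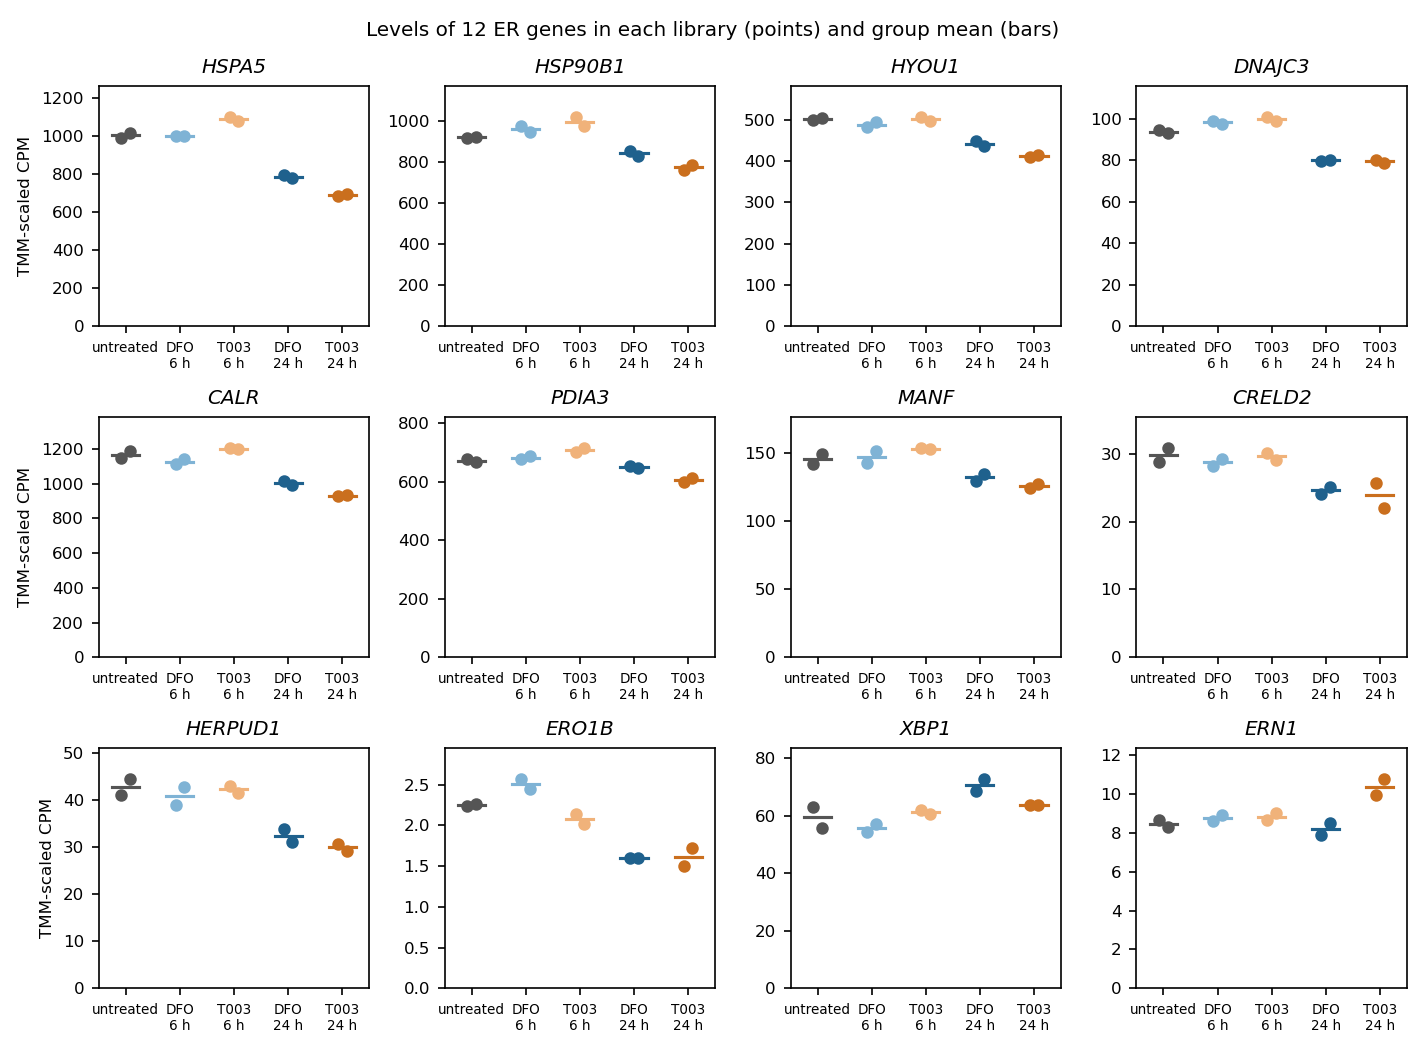
Level (CPM, linear axis, each gene with its own range) of 12 of the 40 genes in every library, grouped as untreated, DFO and T003 at 6 h, and DFO and T003 at 24 h; each point is 1 library and each bar the mean of its group. HSPA5 falls from 990.3 and 1019.7 CPM untreated to 683 and 695 CPM after 24 h of T003.

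Both lectin chaperones were lower after T003, where 5.44% of all genes were lower. CALR, which encodes calreticulin, the soluble lectin and calcium-binding chaperone (chr19, 12938578 to 12944489, plus strand), stood at 1145 and 1187 CPM untreated, 1112 and 1142 CPM at 6 h of DFO, 1203 and 1200.2 CPM at 6 h of T003, 1017 and 991 CPM at 24 h of DFO, and 929 and 932 CPM at 24 h of T003. CALR fell by 0.22 with DFO (SE 0.024, adjusted p = 0.000359) and by 0.33 with T003 (SE 0.024, adjusted p = 1.91e-05), with no overlap between the 24 h and the untreated libraries. CANX, which encodes the membrane-bound lectin calnexin, stood at 1224 and 1234 CPM untreated, 1283 and 1259.8 CPM at 6 h of DFO, 1272 and 1273 CPM at 6 h of T003, 1198 and 1182 CPM at 24 h of DFO, and 1151 and 1157 CPM at 24 h of T003. Calnexin mRNA fell by 0.09 with T003 (SE 0.019, adjusted p = 0.00944), and its log2 change with DFO was -0.05 (adjusted p = 0.205). Without untreated replicate 2 or either T003 24 h library the CANX call was lost (adjusted p = 0.065 to 0.0872).

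Of the 9 disulfide isomerases and oxidases, 4 fell after T003 and 1 after DFO, beside 5.44% and 3.27% of all genes. PDIA3 encodes ERp57, the isomerase that works with calnexin and calreticulin. Its level was 677 and 668 CPM untreated, 679 and 688 CPM at 6 h of DFO, 704 and 715 CPM at 6 h of T003, 654 and 648 CPM at 24 h of DFO, and 599.7 and 615 CPM at 24 h of T003. PDIA3 fell by 0.15 with T003 (SE 0.021, adjusted p = 0.00123), and its change with DFO was -0.05 (adjusted p = 0.256). PDIA6, an isomerase known to bind BiP clients and IRE1, was at 327 and 332 CPM untreated, 331 and 339 CPM at 6 h of DFO, 336 and 338 CPM at 6 h of T003, 321 and 316 CPM at 24 h of DFO, and 301 and 305 CPM at 24 h of T003. It fell by 0.12 with T003 (SE 0.022, adjusted p = 0.0046). PDIA4, which encodes ERp72, was at 348 and 356 CPM untreated, 344 and 359 CPM at 6 h of DFO, 364 and 359.6 CPM at 6 h of T003, 341 and 338 CPM at 24 h of DFO, and 332 and 325 CPM at 24 h of T003, and it fell by 0.10 with T003 (SE 0.025, adjusted p = 0.0264). The PDIA6 call was lost without untreated replicate 2 (adjusted p = 0.0617), and the PDIA4 call without that library or either T003 24 h library (0.0675 to 0.208).

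The isomerases are recharged by the oxidases ERO1A and ERO1B. ERO1B, the form best known from secretory cells and induced by the unfolded protein response, was low at 2.24 and 2.26 CPM untreated, 2.56 and 2.45 CPM at 6 h of DFO, 2.14 and 2.01 CPM at 6 h of T003, 1.60 CPM in both libraries at 24 h of DFO, and 1.51 and 1.72 CPM at 24 h of T003. ERO1B fell by 0.49 with DFO (SE 0.13, adjusted p = 0.0423) and by 0.48 with T003 (SE 0.13, adjusted p = 0.0306). The DFO call was lost with any 1 of the 10 libraries left out (adjusted p = 0.0511 to 0.208), and the T003 call without either untreated or either T003 24 h library (0.0581 to 0.195). ERO1A, the widely expressed form, stood at 158 and 159.5 CPM untreated and had log2 values of 0.09 with DFO (adjusted p = 0.113) and 0.01 with T003 (0.917). The difference between the paralogs was not tested. P4HB, which encodes PDI itself, was at 506 and 512 CPM untreated and 522 and 513 CPM after 24 h of T003, with log2 changes of -0.01 and 0.02 (adjusted p = 0.892 and 0.604). PDIA5 and TXNDC11 passed the test with neither agent. TXNDC5 held 0 to 78 counts per library while the annotated readthrough transcript BLOC1S5-TXNDC5, which overlaps it on the same strand, held 25 to 185, so reads of the 2 may have been split between them and no fold change is given.

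Among the 8 genes of ER-associated degradation, 2 fell with each agent, beside 3.27% (DFO) and 5.44% (T003) of all genes. HERPUD1 encodes HERP, a membrane protein of the retrotranslocation complex (chr16, 56932142 to 56944864, plus strand). It stood at 41.1 and 44.5 CPM untreated, 39.1 and 42.8 CPM at 6 h of DFO, 43.2 and 41.5 CPM at 6 h of T003, 33.8 and 31.1 CPM at 24 h of DFO, and 30.7 and 29.3 CPM at 24 h of T003. Its 24 h libraries lay below all 6 others, and it fell by 0.40 with DFO (SE 0.059, adjusted p = 0.00243) and by 0.51 with T003 (SE 0.060, adjusted p = 0.000336). SYVN1, the ubiquitin ligase HRD1 of the same complex, was at 72.0 and 70.2 CPM untreated, 68.0 and 67.2 CPM at 6 h of DFO, 67.5 and 69.7 CPM at 6 h of T003, 64.0 and 63.7 CPM at 24 h of DFO, and 67.3 and 65.1 CPM at 24 h of T003. SYVN1 fell by 0.16 with DFO (SE 0.031, adjusted p = 0.0119) and by 0.10 with T003 (SE 0.031, adjusted p = 0.0499). The T003 call for SYVN1 was lost with any 1 library left out (adjusted p = 0.0608 to 0.283), and the DFO call without either untreated or either DFO 24 h library (0.0581 to 0.0923). SEL1L, the scaffold of HRD1, was at 115 and 116 CPM untreated, 122 and 116 CPM at 6 h of DFO, 120.3 and 117 CPM at 6 h of T003, 112 and 108 CPM at 24 h of DFO, and 109.6 and 112 CPM at 24 h of T003, and it passed the test in neither comparison with untreated cells. The mannosidase-like lectin EDEM1, the derlins DERL1, DERL2 and DERL3, and SELENOS, a selenoprotein that tethers the complex to the cytosolic ATPase p97, passed it with neither agent, and the changes of EDEM1 were 0.06 and 0.08 and those of SELENOS -0.03 and 0.10.

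Of the 7 sensors, transcription factors and proteases that activate them, 1 rose after DFO (XBP1), and 1 rose (ERN1) and 1 fell (MBTPS2) after T003. Of all genes, 3.43% rose after DFO, and 7.10% rose and 5.44% fell after T003. ATF6 was at 78.6 and 79.3 CPM untreated, 87.2 and 83.2 CPM at 6 h of DFO, 80.5 and 85.4 CPM at 6 h of T003, 85.4 and 84.4 CPM at 24 h of DFO, and 80.8 and 80.1 CPM at 24 h of T003, with 24 h changes of 0.10 and 0.03 (adjusted p = 0.104 and 0.724). EIF2AK3 was at 55.0 and 52.3 CPM untreated, 55.0 and 53.8 CPM at 6 h of DFO, 51.4 and 52.1 CPM at 6 h of T003, 52.9 and 52.6 CPM at 24 h of DFO, and 50.5 and 50.9 CPM at 24 h of T003, with changes of -0.03 and -0.08 (adjusted p = 0.789 and 0.161). Neither of these sensors passed the test. ERN1 was at 8.65 and 8.29 CPM untreated, 8.59 and 8.93 CPM at 6 h of DFO, 8.64 and 9.0 CPM at 6 h of T003, 7.89 and 8.53 CPM at 24 h of DFO, and 9.92 and 10.8 CPM at 24 h of T003. It rose by 0.29 with T003 (SE 0.080, adjusted p = 0.0386), its DFO change was -0.05 (adjusted p = 0.848), and the direct difference of T003 and DFO at 24 h was 0.33 (adjusted p = 0.0772), which did not pass the test. The ERN1 call was lost in 8 of the 10 fits that left out a library (adjusted p = 0.051 to 0.237).

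XBP1 was higher after DFO. It stood at 63.0 and 55.9 CPM untreated, 54.4 and 57.2 CPM at 6 h of DFO, 61.8 and 60.7 CPM at 6 h of T003, 68.6 and 72.6 CPM at 24 h of DFO, and 63.8 CPM in both libraries at 24 h of T003. The DFO libraries at 24 h were the highest of the 10, and XBP1 rose by 0.25 with DFO (SE 0.052, adjusted p = 0.0157), while its T003 change was 0.10 (adjusted p = 0.264). The direct difference of T003 and DFO was -0.15 (adjusted p = 0.221). The call was lost without untreated replicate 2 (adjusted p = 0.123) or DFO 24 h replicate 2 (0.126). Gene counts do not separate spliced from unspliced XBP1. MBTPS2, the site-2 protease that releases ATF6 and the sterol regulator SREBP, was at 82.1 and 85.3 CPM untreated, 87.1 and 83.2 CPM at 6 h of DFO, 83.8 and 81.4 CPM at 6 h of T003, 84.4 and 82.6 CPM at 24 h of DFO, and 75.7 and 76.7 CPM at 24 h of T003. MBTPS2 fell by 0.13 with T003 (SE 0.032, adjusted p = 0.0195), a call lost without untreated replicate 2 or either T003 24 h library (0.0621 to 0.149). MBTPS1, the site-1 protease, and CREB3L2, a membrane-bound transcription factor cut in the same way, passed the test with neither agent.

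Of the 5 genes of entry and export, 1 rose with each agent, beside 3.43% (DFO) and 7.10% (T003) of all genes. None passed the test in the lower direction. SPCS3, a signal peptidase subunit, was at 167 and 169.6 CPM untreated, 189 and 188 CPM at 6 h of DFO, 181 and 179 CPM at 6 h of T003, 177 and 182 CPM at 24 h of DFO, and 177 and 174 CPM at 24 h of T003. Every treated library lay above the untreated ones, and SPCS3 rose by 0.09 with DFO at 24 h (SE 0.024, adjusted p = 0.0439), with a T003 change of 0.06 (adjusted p = 0.173). SSR1, a subunit of the translocon-associated complex, was at 245 and 237 CPM untreated, 256 and 251 CPM at 6 h of DFO, 247 and 250.3 CPM at 6 h of T003, 252 and 258 CPM at 24 h of DFO, and 255 and 260.3 CPM at 24 h of T003. SSR1 rose by 0.09 with T003 (SE 0.025, adjusted p = 0.032), with a DFO change of 0.08 (adjusted p = 0.0907). The SPCS3 call was lost in 7 of the 10 fits that left out a library (adjusted p = 0.0528 to 0.261), and the SSR1 call without untreated replicate 2, T003 6 h replicate 1 or either T003 24 h library (0.0597 to 0.246). SEC61A1, the pore of the channel, SEC61B, and the vesicle coat subunit SEC24D passed the test with neither agent. SEC24D had a log2 value of -0.10 with T003 (adjusted p = 0.136). By annotation, 26 of the genes chosen by symbol overlap another gene on the opposite strand and 14 on the same strand, and some do both. Those on the opposite strand include CALR, HYOU1, DNAJC3, HSP90B1, CRELD2, PDIA3, PDIA6, DNAJB11, ERO1B and CANX. Those on the same strand include CALR, DNAJC3, HERPUD1, SYVN1, MBTPS2 and SSR1. Reads of overlapping genes may have been exchanged between them, including for genes whose calls held in every alternative fit.

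At 6 h no gene of the 40 passed the test with either agent. Of all genes tested, 0.0248% passed after DFO and 0.0298% after T003, 5 and 6 genes in all. At an unadjusted p under 0.05 there were 8 of the 40 with each agent, beside 2494 and 1516 of all genes. The values closest to the threshold were SPCS3 after DFO (log2 change 0.16, SE 0.024, adjusted p = 0.0692) and HSPA5 after T003 (0.12, SE 0.022, adjusted p = 0.316). With DESeq2, which called 522 and 81 genes in all at 6 h, CANX and SPCS3 passed after DFO, and HSPA5, HSP90B1, PDIA3 and SPCS3 after T003, all in the higher direction, and limma-voom passed SPCS3 after DFO and HSPA5 after T003. Their direction was thus opposite to the 24 h falls in HSPA5, HSP90B1 and PDIA3.

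The change from 6 to 24 h was then read within each agent, a comparison whose fold does not use the untreated libraries, although they share in the estimate of the spread. Without untreated cells at these hours, longer exposure to an agent and time in culture cannot be told apart here either. Of the 9 HSP70 and HSP90 chaperones and cochaperones, 5 fell with DFO and 7 with T003, and both lectin chaperones fell with each agent. With DFO, 10 of the 40 genes fell and 1 rose between the 2 times, beside 4.60% lower and 5.29% higher of all genes. With T003, 14 fell and none rose, beside 5.93% lower and 7.55% higher. HSPA5 fell by 0.34 with DFO (SE 0.022, adjusted p = 4.92e-06) and by 0.66 with T003 (SE 0.022, adjusted p = 1.53e-07), the latter a change of -36.8%. With T003 the other genes that fell were CALR (-0.37), DNAJC3 (-0.33), HSP90B1 (-0.36), HYOU1 (-0.28), PDIA3 (-0.22), HERPUD1 (-0.50), MANF (-0.28), CANX (-0.14), DNAJB11 (-0.27), PDIA6 (-0.15), PDIA4 (-0.14), CRELD2 (-0.31) and MBTPS2 (-0.12). With DFO they were DNAJC3 (-0.30), CALR (-0.17), HSP90B1 (-0.19), HYOU1 (-0.14), HERPUD1 (-0.34), ERO1B (-0.65), CANX (-0.10), MANF (-0.15) and SEL1L (-0.11), and XBP1 rose by 0.34. Leaving out single libraries ended the DFO calls of CANX, ERO1B, HERPUD1, MANF and SEL1L (adjusted p = 0.0542 to 0.303) and the T003 calls of CRELD2 and MBTPS2 (0.0772 to 0.2). The libraries were DFO 6 h replicate 1 for CANX and ERO1B, DFO 6 h replicate 2 for MANF, DFO 24 h replicate 1 for ERO1B and MANF, and DFO 24 h replicate 2 for CANX, ERO1B and HERPUD1. SEL1L lost its call in 9 of the 10 such fits. CRELD2 lost its T003 call without T003 6 h replicate 1 or T003 24 h replicate 2, and MBTPS2 without any 1 of the 4 T003 libraries.

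The agents were then set against each other at matched hours. At 6 h no gene of the 40 passed the test, nor did any other gene (0% of those tested), with 8 of the 40 and 1334 of all genes at an unadjusted p under 0.05. HSPA5 was 0.12 higher on the log2 scale with T003 than with DFO (SE 0.022, adjusted p = 0.691), and DESeq2 passed HSPA5 and CALR there. At 24 h 1 of the 40 passed, HSPA5, beside 1.34% of all genes. At an unadjusted p under 0.05 there were 16 of the 40, beside 2794 of the 20125 genes tested. HSPA5 was lower with T003 than with DFO by a log2 change of -0.19 (SE 0.022, adjusted p = 0.00539), a difference of -12.4%. The next were PDIA3 (-0.10, adjusted p = 0.0516), CALR (-0.11, 0.0531), HYOU1 (-0.10, 0.0561) and HSP90B1 (-0.12, 0.0624), which did not pass. The call for HSPA5 was lost without T003 24 h replicate 1 (adjusted p = 0.0668).

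The step from 6 to 24 h differed between the agents for HSPA5. A test of that difference, chosen after the data had been seen, compares the change from 6 to 24 h with T003 to that with DFO, and 0.0199% of all genes passed it, 4 in all. HSPA5 was 1 of them, with a value of -0.32 (SE 0.031, adjusted p = 0.00711), and it passed in each of the 17 other fits tried (highest adjusted p 0.0395). Among the others, named after their values were seen, were HMGCS1 (0.46, adjusted p = 0.00274) of cholesterol synthesis and LPIN1 (0.33, adjusted p = 0.0392), a phosphatidate phosphatase.

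**Figure D4:**
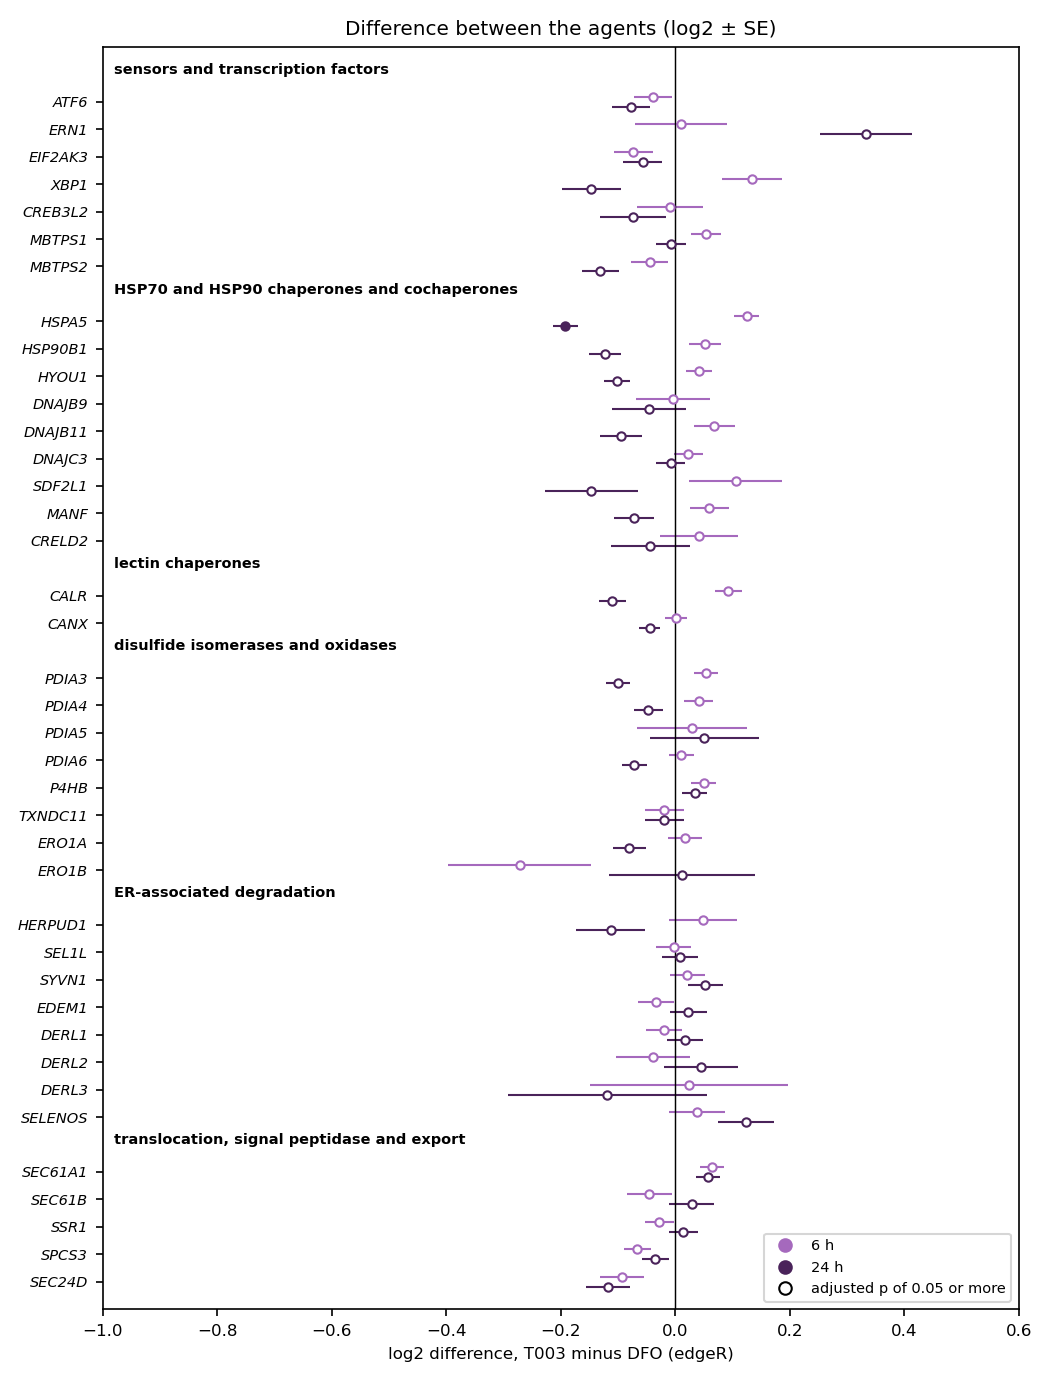
T003 minus DFO on the log2 scale at 6 h and at 24 h for 39 of the 40 genes (without TXNDC5), with bars for 1 standard error; points right of 0 are higher with T003. HSPA5 goes from 0.12 at 6 h to -0.19 at 24 h.

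Genes that hold an ERSE or ERSE-II in the promoter window shown above made up 9 of the 16 that fell with T003. Of the 11 such genes, 9 fell after 24 h of T003 and none rose, with a median log2 change of -0.28. Of the 25 with a promoter entry and neither element, 6 fell and 2 rose, with a median of 0.00. After DFO 7 of the 11 fell and 1 rose (XBP1), median -0.18, and 3 of the 25 fell and 1 rose, median 0.00. SDF2L1 was the other gene of the 11 that did not pass after T003, beside XBP1. The 25 include DNAJC3, MANF, DNAJB11 and PDIA4, which fell with T003 and hold neither element in this window. Outside the 40, 33 further symbols hold an ERSE or ERSE-II and 23 of them were tested. Of these 0 fell and 3 rose after T003 (RUVBL2, SERP1 and ZNF143), with a median of -0.02. After DFO 0 of the 23 fell and 1 rose (SERP1), with a median of -0.06. All counts in this paragraph stand beside 5.44% lower and 7.10% higher of all genes after T003, and 3.27% and 3.43% after DFO. No test was made of these counts, since the genes were chosen for their function and with earlier results of these data known.

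Other parts of the ER and its stress response were read from further lists of related genes. Of all genes tested, 3.27% were lower and 3.43% higher after 24 h of DFO, and 5.44% lower and 7.10% higher after T003. The targets and partners of PERK, ATF4 and CHOP held 10 tested genes, of which 4 fell and 1 rose after DFO and 5 fell and 2 rose after T003 (medians -0.13 and -0.14). CEBPB, a transcription factor that pairs with CHOP, went from 57.0 and 62.1 CPM untreated to 34.0 and 34.6 CPM at 24 h of DFO and 35.4 and 31.6 CPM at 24 h of T003, a fall of 0.80 (adjusted p = 0.00013) and of 0.83 (adjusted p = 6.23e-05) on the log2 scale. DDIT3, which encodes CHOP, the factor induced when ER stress persists, went from 13.1 and 13.3 CPM to 8.79 and 9.30 CPM and to 7.81 and 9.16 CPM, and fell by 0.55 (adjusted p = 0.00344) and by 0.64 (adjusted p = 0.000815). PPP1R15A, which encodes the phosphatase subunit GADD34 that restores translation, rose by 0.42 with T003 (adjusted p = 0.00339), with a DFO change of 0.16 (adjusted p = 0.255).

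Among 16 tested thiol oxidoreductases and prolyl isomerases outside the 40, 3 rose and 1 fell after DFO and 4 rose and 1 fell after T003. The gene that fell was QSOX1, a sulfhydryl oxidase of the late secretory pathway, from 103 and 126 CPM untreated to 53.0 CPM in both DFO libraries and 57.7 and 54.5 CPM with T003 at 24 h. QSOX1 fell by 1.12 with DFO (SE 0.071, adjusted p = 1.09e-05) and by 1.03 with T003 (SE 0.071, adjusted p = 1.22e-05). Among 20 other genes of ER-associated degradation 3 fell with each agent and 3 rose with T003. UBXN4, an ER membrane anchor of p97, fell by 0.21 and 0.34 (adjusted p = 0.000513 and 1.97e-05), VCP, which is p97 itself, by 0.15 and 0.14, and its cofactor NPLOC4 by 0.16 and 0.12.

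Cytosolic heat shock genes formed a further list. Of 12 tested, 4 fell after DFO and 8 after T003, none rose, and the medians were -0.10 and -0.19. HSPA8, the constitutive cytosolic HSP70, went from 4988 and 5192 CPM to 4543 and 4386 CPM with DFO and 3941 and 4014 CPM with T003 at 24 h, and fell by 0.19 (adjusted p = 0.00185) and by 0.36 (SE 0.027, adjusted p = 2.41e-05). DNAJB1, its stress-inducible J-domain partner, fell by 0.29 (adjusted p = 0.00162) and by 0.40 (adjusted p = 0.000139). None of the 11 further lists had a gene that passed the test at 6 h.

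**Figure D5:**
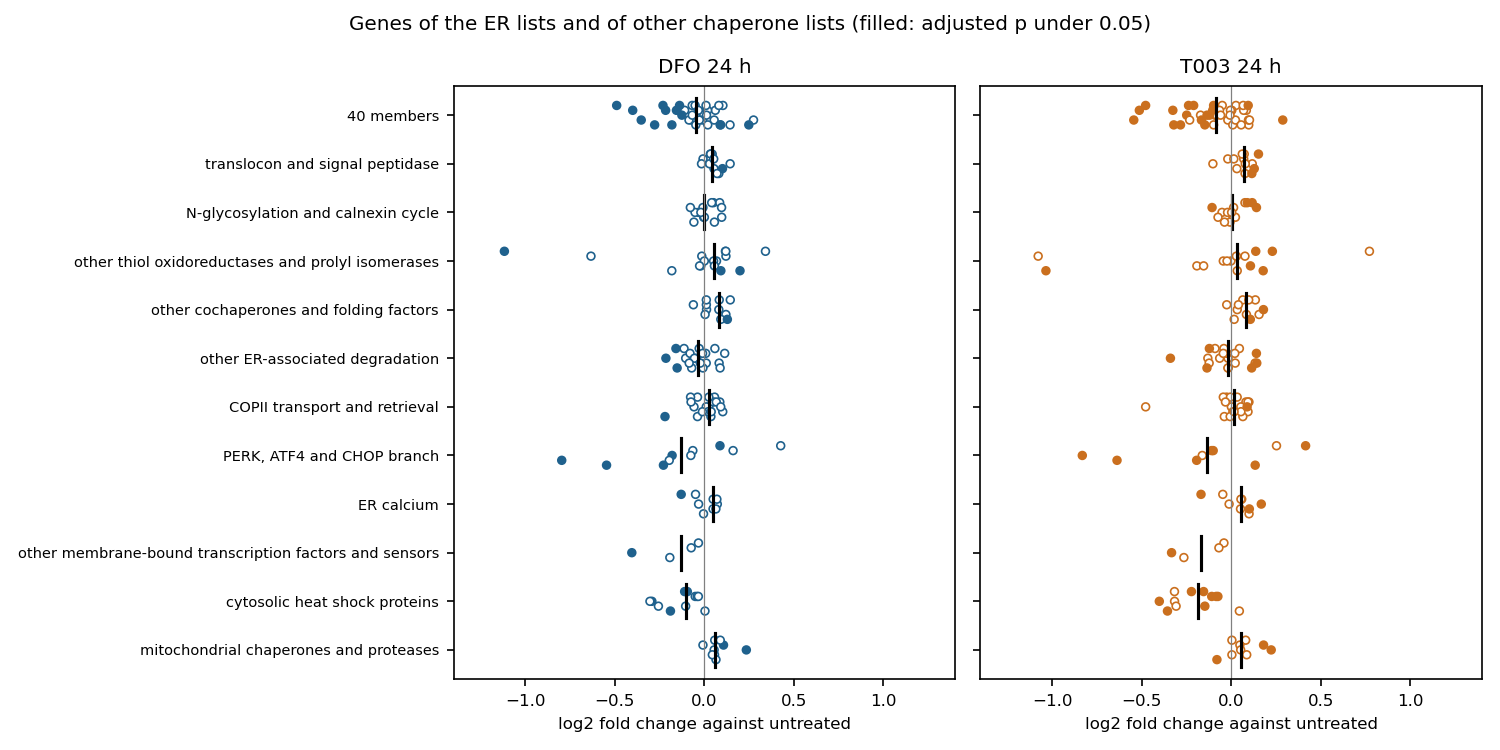
Log2 change at 24 h against untreated cells for every tested gene of the 40 and of the 11 further lists, DFO and T003 in separate panels, 1 point per gene with the list's median marked; 3 genes (TXNDC5, PDIA2 and ASNS) lie outside the T003 axis. The medians of the cytosolic heat shock list are -0.10 and -0.19, and those of the mitochondrial list 0.06 and 0.05.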

How the data were processed

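RNA of 10 libraries was sequenced as 101 bp paired ends. The authors, per the submitters' processing notes and the design text, trimmed reads with fastp 0.21.0, aligned them to hg38 with HISAT2 2.2.1 and counted them with StringTie 2.1.6 on a RefSeq annotation. The strand setting of the counting is not given in these sources. The authors deposited estimated counts per gene, which are whole numbers. The untreated columns carry another name than the sample titles and were matched by their replicate number and the label of no treatment.

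Counts were fitted with edgeR 4.0.16 in R 4.3.3 (TMM scaling, filterByExpr with a minimum count of 10, quasi-likelihood test, all 10 libraries, group as the only term). Adjusted p-values are Benjamini-Hochberg over 20125 genes with a threshold of 0.05, and the standard error is the log2 change over the root of F. The procedure was run on simulated counts with the same dispersion for all genes and changes larger than most of those reported here. That run does not show how well changes of the reported size are called. Alternatives were DESeq2 1.42.0, limma 3.58.1 with voom, RLE scaling, 2 other filters, a replicate block, only the compared libraries, and leaving out each library. The interaction of agent and time was added after seeing the data. A gene that passed it is not reported here. Gene positions, lengths and overlaps come from GENCODE release 44. Members called in a 24 h comparison and the sensors are printed with every library, and of each further list up to 4 genes with the smallest p after 24 h of T003. The genes and all lists were chosen with earlier results of these data known.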

Additional observations from a re-analysis of the deposited data

Results flagged for a closer look

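T003 and DFO differed from each other at 24 h (edgeR's quasi-likelihood test of the difference) for 6 genes of the ER set and the further lists. Of all genes tested, 1.34% differed. The calls were 1 of the 40, 1 of 12 cytosolic heat shock genes and 1 of 9 mitochondrial chaperones and proteases. A further 1 of 20 other genes of ER-associated degradation, 1 of 19 of COPII transport and 1 of 10 of the PERK, ATF4 and CHOP list passed, and none of the remaining lists. Those 6 leave out the cell type markers. By the same test, 4 of the 8 natural killer markers were higher with T003 than with DFO and 0 lower, beside 178 higher and 92 lower of all 20125 genes. HSPA5 was lower with T003 by a log2 change of -0.19 (adjusted p = 0.00539), and its change from 6 to 24 h differed by -0.32 between the agents (adjusted p = 0.00711). HSPA8 was lower with T003 by -0.17 (adjusted p = 0.0202), HSPD1, the mitochondrial HSP60, by -0.14 (adjusted p = 0.00622) and UBXN4 by -0.12 (adjusted p = 0.0416). SEC16A, a scaffold of ER exit sites, was higher with T003 by 0.18 (adjusted p = 0.014), at 217 and 207 CPM with DFO and 241 and 240.0 CPM with T003, where untreated cells had 245 and 248 CPM. ASNS, the asparagine synthetase and an ATF4 target, was at a low level throughout and differed by -2.35 (adjusted p = 0.0167), with 0.932 and 0.895 CPM after DFO, 0.189 and 0.168 CPM after T003, and 0.626 and 0.734 CPM untreated. Groups of 2 libraries are too small for a check of single outlying samples.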

How the results depend on the processing

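Of the 40 genes, 12 passed after 24 h of DFO and 18 after T003. With 1 library left out these counts ran from 5 to 11 and from 8 to 18, and were lowest without untreated replicate 2 (5 and 8) and, for DFO, also without DFO 24 h replicate 2 (5). They were 7 without untreated replicate 1 for DFO, and 11 and 9 without T003 24 h replicate 1 and 2 for T003. CALR, DNAJC3, HERPUD1, HSPA5 and HYOU1 passed after DFO in all 17 alternatives, and those 5 with HSP90B1, MANF and PDIA3 after T003. From 6 to 24 h the counts were 11 (DFO, 7 to 11; 7 without DFO 24 h replicate 2) and 14 (T003, 12 to 15), and 6 and 12 genes passed in every alternative. At 6 h the count of 0 for DFO became 1 with no filter, 2 with DESeq2 and 1 with limma-voom. The 0 for T003 became 4 with DESeq2 and 1 with limma-voom, and the 0 for T003 against DFO became 2 with DESeq2. No library left out changed these 6 h counts of 0. For T003 against DFO at 24 h the count of 1 became 5 with no filter, 6 with a filter of 1 CPM in 2 libraries, 7 with DESeq2, 6 with limma-voom, and 0 to 4 with 1 library left out (3 and 4 without DFO 6 h replicate 1 and 2, 0 without T003 24 h replicate 1). The interaction count of 1 became 2 with no filter, 7 with DESeq2 and 3 with limma-voom, and stayed 1 with any library left out. The causes of these shifts were not tested. Replicate numbers gave no sign of pairing the libraries. Deviations of same-numbered libraries correlated at -0.0521 to 0.0125 over 10 pairs of groups and all 20125 genes tested, including those with low counts. That cannot exclude shared cultures or batches. A replicate block gave 9 and 17 calls at 24 h against untreated and 11 and 13 from 6 to 24 h. It gave 1 for T003 against DFO at 24 h, 1 for the interaction, and 0 in the 6 h comparisons. Values of single genes were also read for each gene, comparison and alternative, against 360 values of the main fit. Of these, 5864 stayed on the same side of the threshold, 130 lost a call, 75 gained one and 0 changed direction while called. Most of the 360 were not called in the main fit, so the 5864 mostly describe uncalled values and do not measure how stable the calls are. Counting error weighs most on the genes under 5 CPM, TXNDC5, ERO1B and DERL3.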

Other observations

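The counts in this section stand beside 3.43% higher and 3.27% lower of all genes after 24 h of DFO, and 7.10% and 5.44% after T003. Of 13 tested genes of the translocon and signal peptidase outside the 40, 1 rose after 24 h of DFO and 3 after T003, and none fell (medians 0.04 and 0.07). SRPRB, a subunit of the signal recognition particle receptor, rose by 0.10 and 0.13 on the log2 scale, and with T003 SEC11A, the catalytic signal peptidase subunit, rose by 0.15 and SSR2 by 0.12. Of 9 mitochondrial chaperones and proteases, 2 rose with each agent and 1 fell with T003 (medians 0.06 and 0.05). GRPEL1, the nucleotide exchange factor of mitochondrial HSP70, rose by 0.23 and 0.22 (adjusted p = 0.00181 and 0.0015), and DNAJA3, its J-domain partner, by 0.11 and 0.18. HSPD1 fell by 0.08 with T003 (adjusted p = 0.0142), and its DFO change was 0.07 (adjusted p = 0.0563).

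Of 14 tested genes of N-glycosylation and the calnexin cycle, none passed after DFO, and 3 rose and 1 (STT3B, -0.11) fell after T003. Of 19 genes of COPII transport 1 fell after DFO and 1 (TMED10, 0.09) rose after T003. Of 11 other cochaperones and folding factors 1 rose after DFO and 2 after T003, among them SERP1 (0.13 and 0.11). Of 9 ER calcium genes 1 fell with each agent (SARAF, -0.13 and -0.17) and 2 rose with T003. Among 4 tested other membrane-bound transcription factors and sensors, CREB3L3 fell by 0.40 with DFO (adjusted p = 0.000331) and by 0.33 with T003 (adjusted p = 0.000755). MZB1, counted above among the plasma cell markers, fell by 0.17 with T003 (adjusted p = 0.0168).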
